A study of Mus musculus with 54 samples.

Results

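The p53, Gadd45 and apoptosis genes *Cdkn1a*, *Mdm2*, *Gadd45a*, *Gadd45b*, *Gadd45g*, *Bax*, *Bbc3*, *Pmaip1* and *Mcl1*, were followed through a benchmark of adult mouse kidney dissociation, storage and nuclei isolation. They were chosen by name as known damage and apoptosis genes, make up 9 of the 33126 gene names listed in the files, and were all measured in every kind of library. The series holds 54 libraries in 18 groups of 3, of which 39 are droplet-based 10x libraries of single cells or single nuclei and 15 are bulk RNA-seq. In 19-week-old male mice labelled AFAPIL.1DEL C57BL/6J (C57), kidneys were dissociated on ice with a cold-active protease (cold) or with a warm enzyme kit (warm), and each suspension was loaded fresh, after 6 weeks of cryopreservation or after 3 months in methanol (MeOH), with bulk libraries of the cold and warm suspensions. In 18-week-old male Balb/c mice, cold-dissociated fresh cells were set beside sorted nuclei of flash-frozen kidneys washed 3 times at 500 g (SN_FANS_3x500g) and bulk libraries of intact kidney. In 15-week-old female Balb/c ex-breeders, cold-dissociated cells were fresh or cryopreserved for 2 weeks, nuclei were isolated by SN_FANS_3x500g, by sorting with 1 spin at 2000 g (SN_FANS_1x2000g) or over a sucrose cushion (SN_sucrose), and bulk libraries came from cold suspensions and intact kidney. Within a group the kidneys came from 3 different mice, the mice of an experiment being littermates except for the ex-breeders, and stored aliquots came from the suspensions that were also loaded fresh.

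The protein p53 is stabilised after DNA damage and other stresses, switches on genes for cell-cycle arrest and cell death, and in kidney is best known from acute tubular injury. *Cdkn1a* encodes p21, an inhibitor of cyclin-dependent kinases, and *Mdm2* encodes the ubiquitin ligase that targets p53 for degradation and is itself a p53 target. The Gadd45 proteins are small stress sensors that bind PCNA and p21 and activate the kinase MAP3K4, and their genes also respond to signals that do not pass through p53. *Bax* encodes the effector that permeabilises the mitochondrial outer membrane, *Bbc3* (PUMA) and *Pmaip1* (NOXA) encode BH3-only activators of cell death, and *Mcl1* encodes a short-lived anti-apoptotic protein that NOXA binds.

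The promoters of 4 members are shown because they belong to the 3 members that rose most often after warm dissociation or cryopreservation and to *Bax*, which passed the test within no class in either. Each is the 250 bases before a RefSeq transcription start on GRCm38.p6, read 5′ to 3′ on the gene's strand, and capitals mark a match to a p53 half-site or to TATAAA. They lie at chr17:29090729-29090978 (*Cdkn1a*, plus strand), chr10:80929841-80930090 (*Gadd45b*, plus strand), chr13:51846425-51846674 (*Gadd45g*, plus strand) and chr7:45466899-45467148 (*Bax*, minus strand).
Cdkn1a: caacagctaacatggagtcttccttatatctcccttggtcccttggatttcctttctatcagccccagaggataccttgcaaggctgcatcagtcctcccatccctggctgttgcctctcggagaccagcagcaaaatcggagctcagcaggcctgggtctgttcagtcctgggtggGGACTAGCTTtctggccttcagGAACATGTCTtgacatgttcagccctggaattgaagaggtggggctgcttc
Gadd45b: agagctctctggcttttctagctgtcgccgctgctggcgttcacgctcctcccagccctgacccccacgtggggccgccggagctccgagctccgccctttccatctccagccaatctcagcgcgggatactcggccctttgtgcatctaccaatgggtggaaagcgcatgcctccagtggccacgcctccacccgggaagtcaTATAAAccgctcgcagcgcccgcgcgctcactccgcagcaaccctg
Gadd45g: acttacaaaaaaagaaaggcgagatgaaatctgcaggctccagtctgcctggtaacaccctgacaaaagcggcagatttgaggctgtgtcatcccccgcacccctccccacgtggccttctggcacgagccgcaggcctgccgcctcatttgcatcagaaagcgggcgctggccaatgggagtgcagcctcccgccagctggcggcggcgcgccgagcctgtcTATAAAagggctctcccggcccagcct
Bax: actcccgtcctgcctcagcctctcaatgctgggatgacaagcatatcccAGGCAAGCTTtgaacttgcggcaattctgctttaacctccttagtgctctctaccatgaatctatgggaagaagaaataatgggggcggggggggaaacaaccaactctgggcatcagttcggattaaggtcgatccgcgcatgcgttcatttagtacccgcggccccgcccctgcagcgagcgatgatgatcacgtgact
*Cdkn1a* has 2 annotated starts, and the window shown, chosen because it holds matches, had 2 p53 half-sites, at -73 to -64 and -51 to -42 from the start. The window before its other start (chr17:29093519-29093768, plus strand) held none of the motifs searched, and the *Bax* window held 1 at -201 to -192. A single half-site each was also found in the windows of *Gadd45a* (-40 to -31) and *Mdm2* (-186 to -177). The *Gadd45b* and *Gadd45g* windows held no half-site and had TATAAA at -46 to -41 and -27 to -22. Searched on both strands of the 250 bases before the start, 7.13% of 32851 promoters held a p53 half-site and 12.4% held TATAAA. The other motifs searched were AP-1 (TGANTCA, in 6.75% of promoters), the cyclic AMP element (TGACGTCA, 1.55%), its core TGACG, which the full element contains (17.8%), and the CArG box (1.47%). No window of *Pmaip1* was searched. Among the other members only *Bbc3* held one of these motifs, TGACG before 1 of its 3 annotated starts.

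Depth ran from 983522 to 35170947 UMIs per 10x library and from 2326998 to 31093949 counts per bulk library, and the 10x libraries held 175959 barcodes. Any pair of 10x libraries of the same chemistry version shared at most 2.05% of the barcodes of its smaller library, and pairs of different versions were not compared. A cluster was given the name of a kidney class from detected markers of that class with a raised level, unless another class had more markers among its leading genes, so each class name means that the cluster was like that cell type. Cryopreservation in the C57 experiment left almost no proximal tubule cells, 14 barcodes from cold and 23 from warm suspensions against 7431 and 7937 fresh, and warm fresh libraries held 5 podocyte barcodes against 353 in cold fresh. Warm cryopreserved replicate 1 stood apart with 344 of its group's 448 principal cells. The summed hemoglobin genes, a sign of red cell RNA, ranged over 4208 to 12038 CPM (counts scaled to the library total) in cold fresh, 1787 to 3552 in warm fresh and 4.41 to 59.4 in cryopreserved C57 libraries, and their part in the results was not tested.

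In fresh cold-dissociated C57 cells each member had its own distribution over 15 classes, given here as plain CPM of the UMIs summed per class and library. *Gadd45a* was by far the most uneven, at 974 ± 209 (SD, n = 3) in podocytes, the filtration barrier cells of the glomerulus. Intercalated cells, the acid-base cells of the collecting duct, came next at 247 ± 18.3, without overlap of the libraries, and proximal tubule and macrophages had 7.89 and 2.85. Podocytes were 2.98% of the cold fresh barcodes and held 61.1% of their *Gadd45a* UMIs (731 of 1196). The podocyte level was also high in Balb/c cells, at 456 in male and 803 in female cold fresh libraries.

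Endothelial cells held 37.5% of the cold fresh *Cdkn1a* UMIs at 82.6 ± 6.39 CPM, while proximal tubule had 2.36. The thin limb (102 ± 140 CPM), dendritic cells (77.1 ± 62.7) and the joint class of mesangial and mural cells (71.2 ± 63.5) also had *Cdkn1a*, with libraries far apart. *Gadd45g* was highest in principal cells (80.7 ± 19.98), endothelial cells (79.6 ± 13.4) and thick ascending limb (78.6 ± 25.3), which did not differ beyond their spread. *Gadd45b* was low in every class, 26.2 ± 12.6 in B cells at its highest and 1 UMI among all proximal tubule cells. *Pmaip1* led in monocytes (41.2 ± 35.4, 8 UMIs in 2 libraries), dendritic cells (32.6 ± 6.86) and macrophages (18.6 ± 6.86). *Mcl1* led in the same myeloid cells and B cells, at 129.7 ± 22.7 in monocytes and 91.7 ± 10.3 in B cells, against 25.2 in proximal tubule. *Bax* was found in every class, from 48.3 in the distal convoluted tubule to 230.3 ± 17.7 in monocytes, and *Mdm2* ranged from 8.88 in the thin limb of Henle to 38.5 in monocytes.

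**Figure D1:**
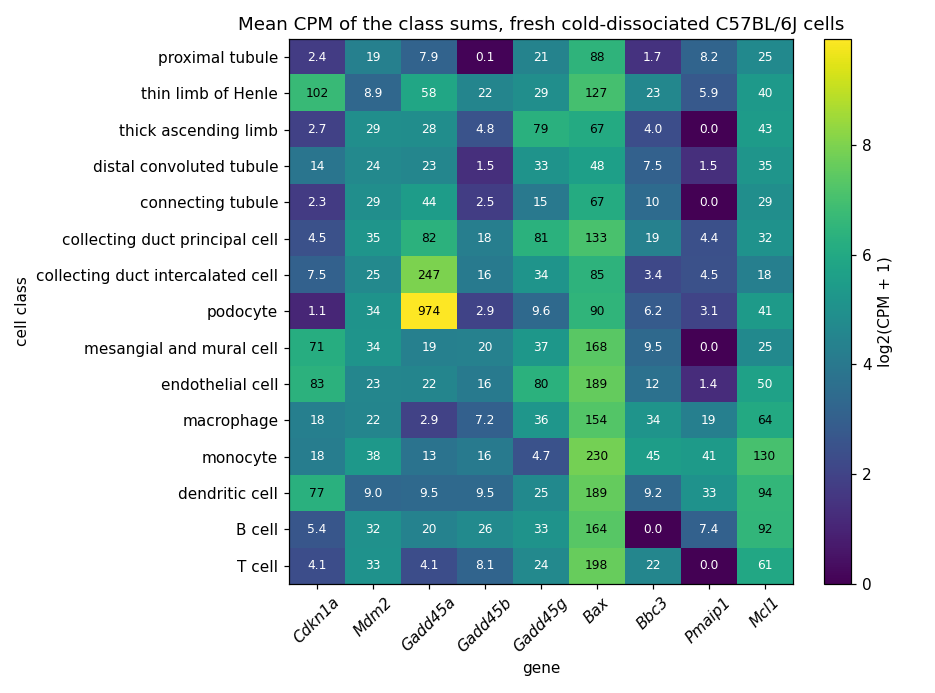
Heat map of the mean level of each member (columns) in 15 cell classes (rows) of the 3 fresh cold-dissociated C57 libraries, in CPM of the UMIs summed per class, coloured on a log2(CPM + 1) scale. *Gadd45a* stands out in podocytes at 974 CPM, and *Gadd45b* is low in all classes.

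To ask what warm digestion did to the members, bulk libraries of the warm and cold C57 suspensions were compared. Of the 9 members 4 rose and none fell, where 5.42% of the 14102 genes tested were called higher and 3.26% lower by edgeR's quasi-likelihood test with a Benjamini-Hochberg adjusted p under 0.05. The median log2 fold change was 0.60 over the 9 members and -0.01 over all genes tested. Values are CPM scaled by the trimmed mean of M values (TMM) within the comparison.
*Gadd45b* was at 2.78, 3.72 and 1.32 in the cold suspensions and at 26.7, 19.7 and 33.0 in the warm ones. The groups lay far apart, with a log2 fold change of 3.33 ± 0.27 (SE; adjusted p = 9.89e-06, edgeR). *Gadd45g* went from 5.44, 7.94 and 8.91 to 31.5, 26.8 and 37.9, a log2 fold change of 2.14 ± 0.18 (adjusted p = 1.42e-05, edgeR).
*Gadd45a* rose less, from 16.1, 14.2 and 13.7 to 21.6, 26.0 and 24.8 (0.71 ± 0.12, adjusted p = 0.00278, edgeR). *Mcl1* went from 123.6, 132.8 and 139.7 to 174, 156 and 170.2 (0.34 ± 0.07, adjusted p = 0.0113, edgeR). The *Mcl1* groups did not overlap, but the call was lost without cold replicate 1 or without warm replicate 1 (adjusted p up to 0.0595, edgeR).
The other 5 members did not pass the test. *Cdkn1a* had 5.56, 5.41 and 9.90 in cold and 9.08, 9.69 and 12.4 in warm suspensions, overlapping groups with a log2 fold change of 0.60 ± 0.23 (adjusted p = 0.146, edgeR). *Mdm2* (0.17 ± 0.09), *Bbc3* (0.66 ± 0.30), *Pmaip1* (0.24 ± 0.14) and *Bax* (0.15 ± 0.11) had adjusted p between 0.227 and 0.466 (edgeR). In a bulk suspension fewer cells of a type and less RNA per cell cannot be told apart. Levels were also corrected for the length of the gene model and then rescaled to a common library total (TPM). On this scale *Mcl1* was the highest member at 137 TPM in cold and 179 in warm suspensions. *Gadd45g* went from 22.4 to 100.2 TPM, and *Bbc3* was lowest at 2.35 and 3.79.

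Lists of genes around the members were read in the same bulk comparison, where 5.42% of all genes tested were called higher and 3.26% lower. Of 27 other p53 target genes tested, 5 rose and 1 fell, led by *Btg2*, an anti-proliferative gene that is also an immediate early gene (log2 fold change 3.12 ± 0.14), the stress cytokine *Gdf15* (3.10 ± 0.15) and the kinase *Plk2* (2.36 ± 0.19), while *Tnfrsf1b* fell by 0.52. None of 14 regulators of p53, 22 genes of apoptosis execution or 14 genes of the Gadd45 and MAP kinase arm passed the edgeR test, with 1, 2 and 2 of them at an unadjusted p under 0.05. At the shares over all genes, lists of this length would hold few calls. Among 13 other Bcl-2 family genes *Bcl2* rose by 0.27 and *Bnip3l* fell by 0.39, and among 14 genes of the G1 cell cycle *Ccnd2* fell by 0.44. Of the 17 dissociation stress genes that the study chose on these samples, and that are therefore no independent evidence, 15 rose. *Btg2* belongs to this list as well.

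Summing all UMIs of each fresh 10x library gave 4 of 9 members higher and none lower in warm libraries, where 7.81% of 12003 genes were called higher and 6.58% lower, with medians of 0.10 over the members and -0.03 over all genes.
*Gadd45g* was at 21.4, 31.7 and 31.9 TMM-scaled CPM in cold and at 163, 151 and 146 in warm libraries (log2 fold change 2.43 ± 0.15, adjusted p = 3.83e-05, edgeR). *Gadd45b* was at 3.03, 3.96 and 4.32 against 20.4, 14.6 and 16.9 (2.15 ± 0.19, adjusted p = 0.000274, edgeR). Both were above every cold library in every warm library.
*Pmaip1* had 5.16, 8.29 and 9.05 in cold and 21.6, 15.0 and 15.3 in warm libraries (1.16 ± 0.22, adjusted p = 0.0112, edgeR), and *Cdkn1a* had 7.30, 14.5 and 14.3 against 28.3, 22.2 and 25.1 (1.03 ± 0.22, adjusted p = 0.0173, edgeR). These 2 calls were lost without cold fresh replicate 2, which took the count from 4 to 2 (adjusted p 0.0626 at most for *Cdkn1a* and 0.0558 for *Pmaip1*, edgeR).
*Bbc3* (-0.67 ± 0.29), *Mdm2* (-0.10 ± 0.12), *Mcl1* (0.10 ± 0.13) and *Bax* (0.01 ± 0.11) had adjusted p between 0.150 and 0.972 (edgeR).
*Gadd45a* did not follow the bulk libraries, at 47.9, 61.0 and 58.6 in cold and 38.6, 59.0 and 43.1 in warm libraries (-0.24 ± 0.17, adjusted p = 0.363, edgeR). Its log2 fold change was nevertheless positive in 6 of the 6 classes tested, from 0.64 to 1.94. In warm fresh libraries, with 5 podocyte barcodes, proximal tubule held 53.8% of its UMIs (677 of 1258). The part of the podocytes in the *Gadd45a* library sum was not tested.

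**Figure D2:**
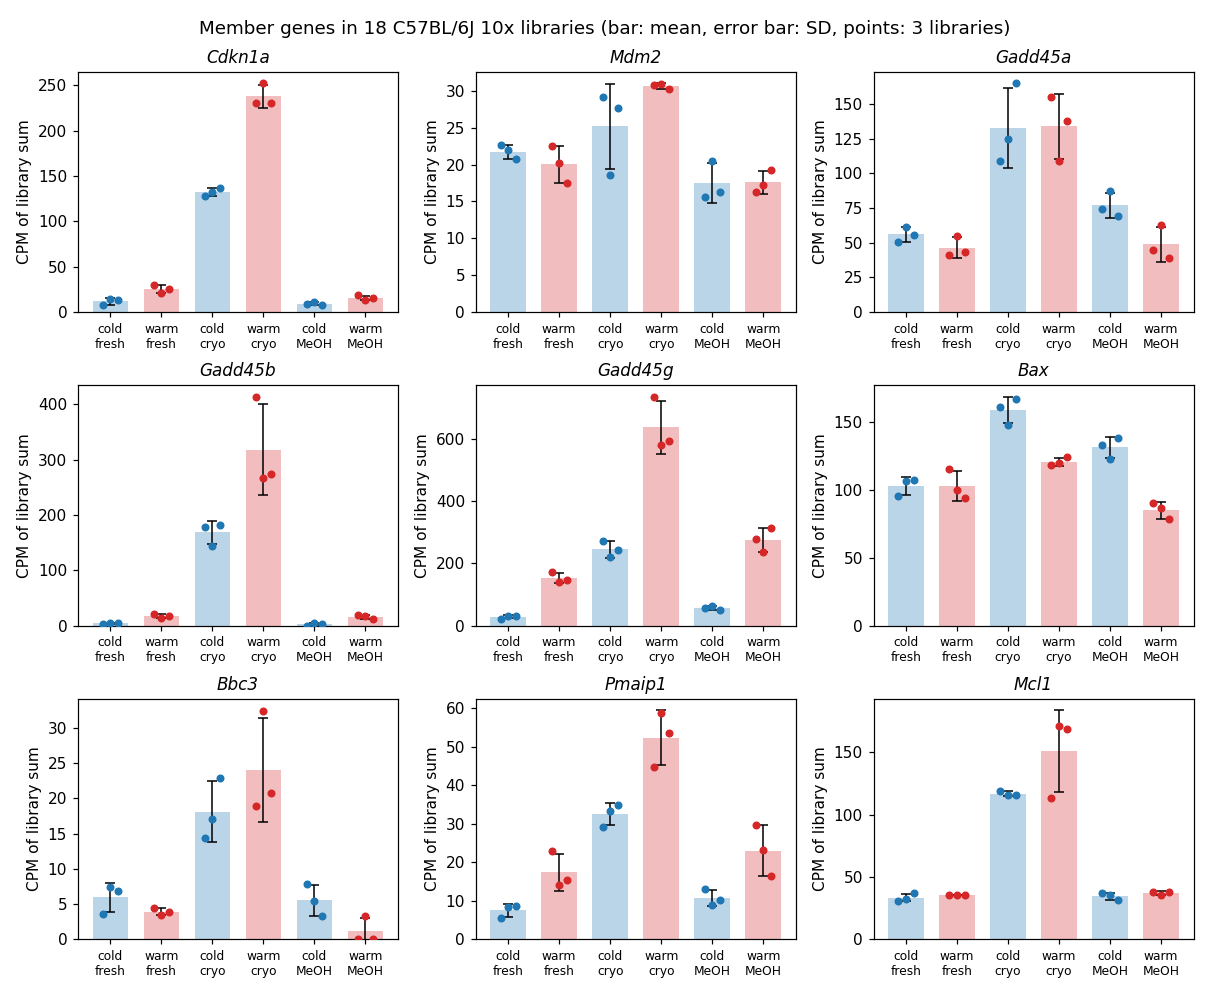
Level of each member (CPM of all UMIs of a library, linear axes from 0) in the 6 C57 groups, with bars for the mean, error bars for the SD and 1 point per library (n = 3). *Gadd45b* is at 3.76 CPM on average in cold fresh, 17.3 in warm fresh, 169 in cold cryopreserved and 318 in warm cryopreserved libraries.

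Over all 10x groups, *Cdkn1a* was highest in C57 warm cryopreserved libraries (238 ± 12.5 plain CPM) and next in cold cryopreserved ones (132 ± 4.38), without overlap, while female Balb/c cryopreserved libraries had 30.3 ± 3.72 and C57 warm fresh ones 25.2 ± 4.60. The 4 groups of nuclei had between 1.97 ± 0.333 and 5.67 ± 2.04. *Gadd45g* had the same leader (637 ± 85.3), followed by warm methanol (275 ± 38.6) and cold cryopreserved (245 ± 26.3), and was at 21.4 ± 4.87 in female Balb/c fresh cells. *Mdm2* was at 69.3 ± 1.87 to 94.7 ± 13.2 in the 4 groups of nuclei, at 40.4 ± 8.29 in male Balb/c fresh and at 17.5 ± 2.69 in C57 cold methanol libraries. Mitochondrial counts made up 13.6% to 34.9% of the totals of the C57 and female Balb/c cell libraries and none of those of nuclei and male Balb/c cells, so small differences of plain CPM between these sets are not read. *Mcl1* ranged from 33.3 ± 3.13 in C57 cold fresh to 151 ± 32.8 in C57 warm cryopreserved libraries, and *Bbc3* was at or below 24.1 ± 7.37 everywhere. *Bax* was at 159 ± 9.71 in C57 cold cryopreserved and 103 ± 6.63 in cold fresh libraries. It was at 121 ± 2.91 in warm cryopreserved and 103 ± 11.1 in warm fresh ones, both without overlap. After C57 cryopreservation these sums lacked proximal tubule, and the classes are compared separately.

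Within classes, warm and cold fresh C57 cells were compared on UMIs summed per class and library, and 16 of 48 member and class pairs were higher in warm cells and none lower, where 2.26% of 34673 gene and class pairs were called higher and 1.46% lower. Only pairs with enough UMIs in at least 1 group could be tested, so the 48 pairs in 14 classes do not stand for all members in all classes, and *Bbc3* was testable in none. Medians of the log2 fold change were 0.67 over the member pairs and -0.01 over all pairs. Values below are TMM-scaled CPM within each comparison.
A gene low in 1 group enters the test mainly where it is high in the other. The share of tested classes with a call is therefore set in part by this filter, here and below. *Gadd45b*, low in every cold fresh class, was called in all 3 classes where it could be tested. In principal cells, the water- and salt-handling cells of the collecting duct, it went from 9.14, 29.0 and 32.1 to 538, 472 and 397 (4.23 ± 0.42, adjusted p = 7.1e-07, edgeR). The principal cells were 0.471% of the warm fresh barcodes and held 18.3% of their *Gadd45b* UMIs.
*Gadd45b* also rose in T cells (3.45) and endothelial cells (1.89). These 2 calls were lost when single libraries were left out, with adjusted p up to 0.121 and 0.141 (edgeR).
*Gadd45g* rose in 6 of 8 classes. In macrophages it went from 32.5, 43.5 and 47.2 to 487, 524 and 423 (3.50 ± 0.25, adjusted p = 2.81e-06, edgeR), and in proximal tubule from 14.6, 28.0 and 22.9 to 137, 123 and 104 (2.46 ± 0.20, adjusted p = 4.74e-05, edgeR). The other calls were in principal cells (2.59), connecting tubule (2.55), endothelial cells (2.22) and thick ascending limb (1.36), and every warm library lay above every cold one in each of them. Some classes with calls changed their largest cluster between the groups, and the part of this in the values was not tested. A cluster with *Mmp12*, *C3ar1* and *Ms4a7* (cluster 9, median 1593 UMIs per cell) held 57.2% of cold fresh macrophages, and one with *Aif1*, *C1qb* and *H2-Eb1* (cluster 14, median 606 UMIs) held 64.2% of warm fresh ones. Connecting tubule went from cluster 23 (54.2%, median 2545 UMIs) to cluster 19 (60.9%, 688.5 UMIs) and thick ascending limb from cluster 17 (68.1%, 2081 UMIs) to cluster 16 (54.9%, 608 UMIs). Proximal tubule was spread over many clusters, the largest holding 15.2% of the cold and 13.6% of the warm fresh cells.

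*Gadd45a* passed the test in proximal tubule alone, from 8.82, 7.40 and 8.47 to 24.6, 46.1 and 21.5 (1.94 ± 0.29, adjusted p = 0.00589, edgeR). *Cdkn1a* rose in endothelial cells from 77.3, 89.5 and 111 to 304, 218 and 298.5 (1.50 ± 0.21, adjusted p = 0.000718, edgeR). In macrophages it rose from 16.3, 11.9 and 34.6 to 209, 129.8 and 197 (2.92 ± 0.39, adjusted p = 0.000497, edgeR). A further call, in monocytes, rested on 3 UMIs in cold and 21 in warm cells, a ratio of 12.0 with a 95% counting interval of 3.58 to 62.8, and was lost in 4 alternatives (adjusted p up to 0.323, edgeR and DESeq2).
*Pmaip1* rose in dendritic cells from 33.6, 52.6 and 37.5 to 798, 479 and 620.3 (3.79 ± 0.37, adjusted p = 2.92e-05, edgeR). Dendritic cells were 0.435% of warm fresh barcodes and held 22.1% of the *Pmaip1* UMIs. In macrophages *Pmaip1* went from 16.3, 15.8 and 31.5 to 203, 73.8 and 95.4 (2.35 ± 0.48, adjusted p = 0.015, edgeR), a call lost without cold fresh replicate 2 (adjusted p = 0.0957, edgeR). *Mcl1* was called in 1 of 7 classes, dendritic cells, from 134, 114 and 103 to 624, 334 and 301 (1.75 ± 0.36, adjusted p = 0.00822, edgeR).
*Bax* was tested in all 14 classes and passed in none, with a median log2 fold change of -0.18 and 4 positive values. *Mdm2* was testable in 1 class (-0.16). Of the 16 calls 10 were lost in none of the 12 alternatives, and leaving out cold fresh replicate 2 took the count to 10. Some pairs could not be tested in every alternative. Here and below, a call kept in all alternatives is one kept in all those that could test it. Of the dissociation stress gene pairs, 148 of 192 were higher and 1 lower in the same classes, and 30 of 52 hemoglobin pairs were lower. Of 56 pairs of other p53 targets 13 were higher, 11 of them *Btg2* (1.92 to 4.53), which is also on the list of stress genes. None of 20 pairs of p53 regulators, 54 of the Bcl-2 family or 59 of apoptosis execution passed the edgeR test, with 4, 4 and 9 at an unadjusted p under 0.05. Over all gene and class pairs 2.26% were called higher and 1.46% lower.

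**Figure D3:**
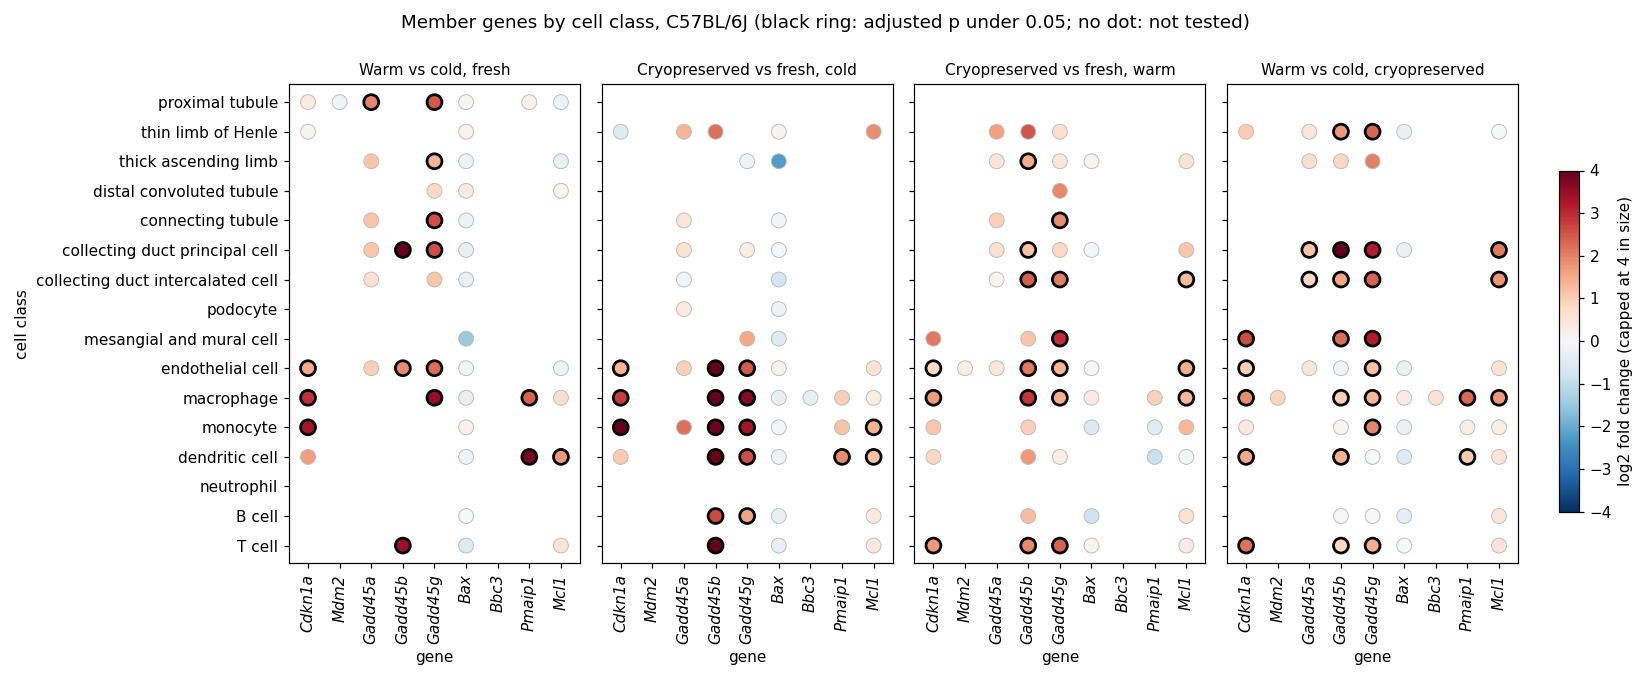
Log2 fold change of each member in 16 cell classes for warm against cold fresh cells, cryopreserved against fresh cells from cold and from warm suspensions, and warm against cold cryopreserved cells, coloured with a cap at 4 and ringed in black where the adjusted p was under 0.05. *Gadd45b*, *Gadd45g* and *Cdkn1a* carry most rings, and *Bax* carries none.

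Bulk libraries of female Balb/c kidneys addressed the step from intact tissue to cold suspension. Of the 9 members 2 were lower in intact kidney and none higher, where 7.91% of 16538 genes were called lower and 12.1% higher, and the medians were -0.06 for the members and -0.00 for all genes.
*Pmaip1* was at 23.2, 22.9 and 26.2 TMM-scaled CPM in the suspensions and at 17.5, 17.1 and 17.8 in intact kidney (-0.47 ± 0.08, adjusted p = 0.00226, edgeR), and kept its call in all 10 alternatives. *Mcl1* was at 170.2, 170.4 and 181 against 155, 153.5 and 157.5 (-0.16 ± 0.05, adjusted p = 0.0383, edgeR), a call lost without any 1 of the 6 libraries (adjusted p up to 0.137, edgeR). The other 7 members had log2 fold changes between -0.19 (*Gadd45a*, adjusted p = 0.0517, edgeR) and 0.18 (*Gadd45g*), with *Mdm2*, *Cdkn1a*, *Bax*, *Bbc3* and *Gadd45b* between these. The 4 hemoglobin genes were all lower in intact kidney (median -2.38).

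After cryopreservation of cold-dissociated C57 cells, 17 of 51 member and class pairs were higher than in the fresh cells and none lower, where 3.57% of 28201 pairs were called higher and 3.82% lower, with medians of 0.94 over the member pairs and -0.02 over all pairs. These comparisons share the cold fresh libraries with the one above and are set beside it without being compared.
*Gadd45b* was called in 6 of 7 classes. In endothelial cells it went from 23.7, 10.9 and 15.3 to 235.5, 266 and 340.0 (4.18 ± 0.28, adjusted p = 5.04e-09, edgeR) and in macrophages from 15.6, 0 and 6.53 to 168, 176 and 140.5 (4.51 ± 0.45, adjusted p = 4.23e-08, edgeR). It also rose in T cells (4.62), B cells (2.63), dendritic cells and monocytes. The last 2 rested on 3 and 2 fresh UMIs, with ratios of 17.7 (95% counting interval 5.80 to 88.0) and 16.8 (4.56 to 140.5).
*Gadd45g* rose in 5 of 8 classes, in macrophages from 31.2, 43.4 and 49.0 to 639, 558 and 385 (3.63 ± 0.28, adjusted p = 8.57e-10, edgeR) and in endothelial cells from 61.5, 98.3 and 104.7 to 484, 464 and 563 (2.45 ± 0.19, adjusted p = 3.02e-08, edgeR). The cluster with *Mmp12*, *C3ar1* and *Ms4a7* held 89.6% of the cryopreserved macrophages. Its other calls were in dendritic cells (2.57), B cells (1.62) and monocytes, the last on 1 fresh UMI (ratio 12.0, 95% counting interval 2.03 to 483).
*Cdkn1a* rose in endothelial cells from 75.7, 87.3 and 109.8 to 216.5, 272 and 217 (1.35 ± 0.20, adjusted p = 9.24e-05, edgeR), in macrophages by 2.77 and in monocytes, with 3 fresh and 216 cryopreserved UMIs (ratio 20.02, 95% counting interval 6.76 to 97.8). *Pmaip1* rose in dendritic cells from 31.3, 48.1 and 35.7 to 148, 178 and 131 (1.90 ± 0.40, adjusted p = 0.00456, edgeR). *Mcl1* rose in dendritic cells (1.21) and monocytes (1.40), both lost with DESeq2 (adjusted p up to 0.201 over the alternatives). *Bax* passed in none of 13 classes (median -0.20, 2 positive), and *Gadd45a* in none of 7 (median 0.61). *Bbc3* was tested in macrophages alone (-0.35, adjusted p = 0.643, edgeR) and *Mdm2* in no class. Of the 17 calls 13 were kept in all 12 alternatives. The summed stress genes were at 10562 to 13663 CPM in these libraries against 2160 to 2481 in cold fresh ones, and 53 of 54 hemoglobin pairs were lower.

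Cryopreserved warm-dissociated cells held a further rise over warm fresh cells, with 18 of 54 pairs higher and none lower, where 4.54% of 19616 pairs were called higher and 3.83% lower (medians 1.04 and -0.02).
*Gadd45b* went in macrophages from 56.5, 49.1 and 23.9 to 351, 290.0 and 317 (2.83 ± 0.27, adjusted p = 1.82e-05, edgeR) and in endothelial cells from 65.2, 54.9 and 54.9 to 304, 239 and 207 (2.08 ± 0.21, adjusted p = 1.16e-05, edgeR). It was also called in T cells (1.93), intercalated cells (2.40), principal cells (1.17) and thick ascending limb (1.48), every cryopreserved library being above every fresh one. *Gadd45g* was called in macrophages (1.45), endothelial cells (1.37), intercalated cells (2.02), connecting tubule (1.85), T cells (2.37) and the class of mesangial and mural cells. The last call had 2 fresh libraries and was lost with the replicate number as a block (2.96 without and 2.35 with the block, adjusted p = 0.470, edgeR).
*Cdkn1a* rose in macrophages from 207, 132 and 197 to 671, 419 and 603 (1.70 ± 0.24, adjusted p = 0.000322, edgeR) and in endothelial cells by 0.81. *Mcl1* rose in endothelial cells (1.44) and macrophages (1.29). *Cdkn1a* in T cells (1.72) and *Mcl1* in intercalated cells (1.27) lost their calls with the block (adjusted p = 0.0847 and 0.0590, edgeR). The block gave calls for *Gadd45b* in dendritic cells, *Mcl1* in monocytes and *Pmaip1* in macrophages (adjusted p = 0.00317, 0.0147 and 0.0137, edgeR) that were not made without it. *Gadd45a* passed in none of 6 classes (median 0.59), *Bax* in none of 7 (median -0.04), *Pmaip1* in none of 3 (-0.89 to 0.94) and *Mdm2* not in the 1 where it was tested (0.26), while *Bbc3* was tested in no class. Of the 18 calls 10 were kept in all 12 alternatives.
The largest cluster changed from 14 (64.2%) to 9 (79.8%) in macrophages, from 19 (60.9%) to 23 (63.9%) in connecting tubule, from 16 (54.9%) to 17 (54.6%) in thick ascending limb and from 20 (86.8%) to 31 (58.2%) in intercalated cells. Cluster 20 was led by *Slc26a4*, which marks type B intercalated cells, and cluster 31 had *Slc4a1*, which marks type A cells, among its leading genes. Of the dissociation stress gene pairs 75 of 209 were higher and 2 lower, and 34 of 35 hemoglobin pairs were lower. The part of the clusters and of these genes in the values was not tested.

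Warm and cold cryopreserved cells were also set directly against each other, and 27 of 56 pairs were higher in warm cells and none lower, where 5.29% of 21532 pairs were called higher and 1.39% lower (medians 0.88 and -0.01).
*Gadd45b* in principal cells went from 60.8, 20.4 and 83.6 in cold to 1004, 807 and 908 in warm cryopreserved cells (4.39 ± 0.35, adjusted p = 3.8e-06, edgeR). Without single libraries, replicate 1 with most of the principal cells included, and over all 12 alternatives, this log2 fold change stayed between 3.65 and 4.78. Principal cells held 33.0% of the warm cryopreserved *Gadd45b* UMIs from 12.9% of the barcodes. Both shares are pooled over libraries, with most of the principal cells from replicate 1.
*Gadd45b* was called in 7 classes and *Gadd45g* in 8 of 11 each. *Gadd45g* went in the class of mesangial and mural cells from 143, 146 and 187 to 1896, 464 and 1390 (3.16 ± 0.43, adjusted p = 0.000433, edgeR) and in endothelial cells from 472, 454 and 551 to 1269, 1079 and 965 (1.16 ± 0.14, adjusted p = 1.15e-06, edgeR). Every warm library lay above every cold one in both classes.
*Cdkn1a* was called in 5 of 7 classes, from 0.98 in endothelial cells to 2.602 in mesangial and mural cells. In macrophages it was at 145.5, 184 and 129 in cold and 662, 417 and 609.5 in warm cells (1.85 ± 0.21, adjusted p = 2.45e-07, edgeR). *Pmaip1* was called in 2 of 3 classes. In macrophages it rose from 46.5, 53.03 and 33.04 to 208, 199 and 257 (2.30 ± 0.25, adjusted p = 1.97e-07, edgeR). In dendritic cells it went from 151, 179 and 131 to 262.5, 324 and 355 (1.06 ± 0.28, adjusted p = 0.0348, edgeR), a call lost in 7 of 12 alternatives (adjusted p up to 0.262, edgeR and DESeq2). *Mcl1* was called in macrophages (1.73), intercalated cells (1.76) and principal cells (2.09).
*Gadd45a* was called in intercalated cells (0.83) and principal cells (1.18). *Bbc3* (0.62) and *Mdm2* (0.90) were tested in macrophages alone, with adjusted p of 0.387 and 0.194 (edgeR). Of the 27 calls 17 were kept in all 12 alternatives. The stress genes were higher in 131 of 202 pairs and lower in 2. *Bax* passed in none of 8 classes (median -0.27).

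The difference of these differences was tested as an interaction, the rise on cryopreservation in warm cells minus that in cold cells. Of 69 member pairs 5 passed, all lower, where 0.438% of 29679 pairs were called lower and 0.148% higher. They were *Gadd45b* in T cells and endothelial cells, *Gadd45g* in macrophages, *Pmaip1* in dendritic cells and *Cdkn1a* in monocytes, with log2 differences from -3.01 to -2.09. In plain CPM *Gadd45g* in macrophages was at 32.6, 36.2 and 39.5 in cold fresh, 622, 523 and 372 in cold cryopreserved, 468, 449 and 390 in warm fresh and 1014, 1019 and 1437 in warm cryopreserved cells (interaction -2.15 ± 0.36, adjusted p = 0.00134, edgeR). The warm and cold libraries were apart before and after cryopreservation, and the fold of the rise was smaller in warm cells. *Pmaip1* in dendritic cells was at 29.1, 40.5 and 28.2 in cold fresh and at 131, 155 and 109 in cold cryopreserved cells, but at 631, 362 and 497 in warm fresh and 221.5, 266 and 291 in warm cryopreserved cells (-2.69 ± 0.46, adjusted p = 0.00103, edgeR). *Gadd45a* (7 classes), *Bax* (13), *Mcl1* (11), *Mdm2* (2) and *Bbc3* (1) passed in no class, with adjusted p of at least 0.300 (edgeR). Among the 5 pairs *Pmaip1* in dendritic cells was the one with a higher level after cryopreservation of cold cells and a lower one after cryopreservation of warm cells. The fall in warm cells was not called by itself, as *Pmaip1* passed in none of 3 classes there.

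In female Balb/c kidneys, where cryopreserved cells were thawed with a spin at 1200 g rather than 400 g, 8 of 66 pairs were higher after cryopreservation and none lower, where 2.90% of 67269 pairs were called higher and 4.01% lower (medians 0.21 and 0.01).
Proximal tubule had 4 of the calls. *Cdkn1a* had 3.23, 3.99 and 4.83 fresh and 23.1, 21.0 and 4.53 cryopreserved (2.16 ± 0.37, adjusted p = 0.000186, edgeR), so 1 cryopreserved library lay within the fresh range. *Gadd45a* went from 11.8, 10.9 and 11.6 to 33.2, 28.7 and 27.2 (1.39 ± 0.21, adjusted p = 5.48e-05, edgeR) and *Mcl1* from 44.0, 44.7 and 42.8 to 66.4, 77.2 and 58.8 (0.66 ± 0.14, adjusted p = 0.00134, edgeR). *Bbc3* (2.16) rested on 14 cryopreserved UMIs. *Bax* passed in none of 13 classes (median 0.01), *Mdm2* in none of 9 (median 0.10) and *Pmaip1* not in the 1 where it was tested (0.03).
Proximal tubule fell from 9403 fresh to 379 cryopreserved barcodes, and its largest cluster changed from one with 20.1% of the fresh cells to one led by *C3*, *Ptgds* and *Vcam1* with 31.9% of the cryopreserved cells. The latter had a median of 5487 UMIs per cell against 724.5 in the former, and none of the proximal tubule markers was among its leading genes, so these values rest in part on cells whose name is less certain. With coarser clusters the *Cdkn1a*, *Gadd45a* and *Mcl1* calls were lost (adjusted p = 0.827, 0.322 and 0.140, edgeR).
*Gadd45g* rose in thin limb (1.89), endothelial cells (1.06) and intercalated cells (0.81), and *Gadd45b* in intercalated cells, from 40.3, 37.2 and 39.2 to 64.5, 61.3 and 62.6 (0.71 ± 0.20, adjusted p = 0.0285, edgeR). The largest cluster of intercalated cells changed from 26, led by *Atp6v1g3* and *Hmx2* (54.4% of the fresh cells, median 1169 UMIs), to 17, led by *Aqp6* and *Slc4a1* (80.5% of the cryopreserved cells, median 5950 UMIs). None of the 8 calls was kept in all 11 alternatives. Of the dissociation stress gene pairs 27 of 153 were higher and 1 lower.

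Methanol-fixed cells were compared with the fresh cells of the same suspensions. In cold-dissociated cells 5 of 35 member pairs were higher and 1 lower than fresh, where 9.47% of 36281 pairs were called higher and 10.5% lower (medians 0.20 and 0.00). *Gadd45a* in proximal tubule went from 9.08, 7.63 and 8.69 to 17.9, 19.1 and 26.1 (1.34 ± 0.20, adjusted p = 0.000965, edgeR), and this was the single call kept in all 12 alternatives. *Gadd45g* in proximal tubule (0.96), *Gadd45a* in connecting tubule (1.09) and endothelial cells (1.05) and *Bax* in proximal tubule (0.36) were also higher, and *Mdm2* in proximal tubule was lower, from 20.7, 18.3 and 22.1 to 11.2, 15.2 and 12.8 (-0.62 ± 0.18, adjusted p = 0.0268, edgeR). *Mcl1* passed in none of 5 classes (median -0.59), *Cdkn1a* in none of 2 (-0.15 and 0.20) and *Pmaip1* not in the 1 where it was tested (0.19), while *Gadd45b* and *Bbc3* were tested in no class. Leaving out replicate 2 of cold fresh or of cold methanol took the 6 calls to 2, and leaving out replicate 3 of either took them to 3. With the replicate block the 6 calls became 8, with *Gadd45a* in podocytes (0.46, adjusted p = 0.0134, edgeR) and *Gadd45g* in thick ascending limb (0.75, adjusted p = 0.0468, edgeR) added. The largest cluster of connecting tubule changed from 23 (54.2%) to 19 (68.5%) and that of thick ascending limb from 17 (68.1%) to 16 (59.2%). Hemoglobin pairs were higher in 37 of 60 and stress gene pairs lower in 32 and higher in 1 of 97, and their part in the values was not tested.
In warm-dissociated cells 2 of 26 pairs were higher and 2 lower, where 4.79% and 5.84% of 20794 pairs were called (medians 0.19 and -0.04). *Cdkn1a* in endothelial cells fell from 352.5, 255 and 349 to 136, 68.9 and 116 (-1.71 ± 0.34, adjusted p = 0.00946, edgeR) and *Bax* in proximal tubule fell by 0.37. *Gadd45g* rose in proximal tubule (0.78) and macrophages (0.86). *Gadd45a* passed in none of 5 classes (median 0.16), *Pmaip1* (0.48 and 0.59) and *Mcl1* (-0.84 and 0.21) in none of 2, and *Mdm2* (-0.22) and *Gadd45b* (0.03) not in the 1 where each was tested, while *Bbc3* was tested in no class. None of these 4 calls was kept in all 12 alternatives, and without warm fresh replicate 3 a single call was left. Here 23 of 36 hemoglobin pairs were higher, 29 of 124 stress gene pairs were lower and 2 higher, and the largest macrophage cluster changed from 14 (64.2%) to 9 (54.8%).
Warm against cold methanol-fixed cells gave 5 of 18 pairs higher and 1 lower, where 1.47% and 0.857% of 17395 pairs were called (medians 0.25 and -0.04). *Gadd45g* was called in macrophages, from 171, 35.4 and 78.4 to 1516, 1095 and 806 (3.90 ± 0.34, adjusted p = 1e-06, edgeR), and in proximal tubule, from 38.6, 62.9 and 41.4 to 190, 199 and 309.5 (2.24 ± 0.21, adjusted p = 6.65e-05, edgeR). It was also called in endothelial cells (2.599) and connecting tubule (1.72). *Pmaip1* in macrophages went from 19.01, 7.08 and 15.7 to 221, 188 and 268.5 (3.88 ± 0.47, adjusted p = 3.72e-05, edgeR), on 5 UMIs in cold cells. *Bax* in proximal tubule fell by 0.69. *Cdkn1a* (-0.01), *Mdm2* (0.22) and *Mcl1* (-0.05) were tested in 1 class each and *Gadd45a* in 3 (median 0.28), and none of these passed. Of the 6 calls 4 were kept in all 12 alternatives. Most of the cold macrophages were in cluster 14 (53.6%) and most of the warm ones in cluster 9 (54.8%), the stress genes were higher in 58 of 85 pairs and hemoglobin lower in 34 of 36, and the part of these in the values was not tested. No member pair passed the edgeR interaction of methanol with dissociation among 36 tested, which covered all members but *Bbc3*, with 3 at an unadjusted p under 0.05, where 0.00354% of 28224 pairs were called higher and 0.00354% lower.

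Nuclei were compared with cells of the same sex of Balb/c mice. Counts of nuclei included introns and counts of cells did not, so the comparison also spans that difference, and most genes differed. Nuclei and cells were clustered separately, and their classes were matched by name. In females 47 of 66 member pairs were lower in SN_FANS_3x500g nuclei and 7 higher, where 39.1% and 41.1% of 89063 pairs were called, and the medians were -1.55 over the member pairs and 0.10 over all pairs.
*Bax* was lower in 11 of 11 classes (median -2.94). In proximal tubule it was at 165, 187 and 182 in cells and 18.5, 16.1 and 16.2 in nuclei (-3.40 ± 0.09, adjusted p = 1.99e-11, edgeR). *Mcl1* was also lower in 11 of 11 classes, but by less (median -1.06), for instance in proximal tubule from 79.1, 82.9 and 75.7 to 40.0, 39.7 and 32.5 (-1.09 ± 0.10, adjusted p = 5.51e-07, edgeR).
*Gadd45a* was lower in 9 of 9 classes. In podocytes, where cells had it highest, it was at 1139, 1021 and 1186 in cells and 84.9, 75.9 and 78.3 in nuclei (-3.78 ± 0.20, adjusted p = 3.45e-13, edgeR). *Cdkn1a* was lower in 5 of 5 classes (median -3.25), *Gadd45b* in 6 of 6 (median -1.81) and *Bbc3* in 3 of 3. *Pmaip1* was lower in proximal tubule (-0.91, adjusted p = 0.000251, edgeR) and did not pass in principal cells (-0.11).
*Mdm2* was the member that was higher in nuclei, in 7 of 10 classes with a median of 0.68 and positive values in all 10. In proximal tubule it was at 32.8, 38.5 and 35.0 in cells and 68.7, 63.6 and 59.9 in nuclei (0.85 ± 0.09, adjusted p = 3.78e-06, edgeR). *Gadd45g* differed in 1 of 9 classes, endothelial cells (-2.31), and was positive in 5. Of the 54 calls 48 were kept in all 11 alternatives.

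In males 9 of 39 pairs were higher and 11 lower in nuclei, where 43.7% and 29.7% of 48881 pairs were called (medians -0.22 and 0.55). *Mdm2* was higher in 4 of 7 classes (median 0.98), in proximal tubule from 41.7, 30.2 and 52.7 to 67.0, 87.4 and 83.5 (0.98 ± 0.20, adjusted p = 0.00044, edgeR). *Gadd45g* was higher in 4 of 7, in proximal tubule from 76.1, 41.7 and 66.3 to 89.0, 139 and 244 (1.40 ± 0.33, adjusted p = 0.00139, edgeR), with nuclei spread over a wide range.
*Bax* was lower in 4 of 8 classes (median -0.79) and *Mcl1* in 3 of 5 (median -0.77). *Gadd45a* was lower in podocytes (-2.33), on 5 UMIs in nuclei, and in connecting tubule (-0.92), but higher in proximal tubule, from 64.7, 35.5 and 61.8 to 77.8, 78.4 and 74.2 (0.56 ± 0.19, adjusted p = 0.0145, edgeR). The proximal tubule call was lost with DESeq2 or without fresh replicate 2 (adjusted p up to 0.179). *Cdkn1a* was lower in endothelial cells (-1.96) and *Pmaip1* in proximal tubule (-1.68). *Gadd45b* was tested in intercalated cells alone (-0.63, adjusted p = 0.193, edgeR), and *Bbc3* in no class. Of the 20 calls 12 were kept in all 11 alternatives.
The lists around the members went both ways. In females pairs of p53 regulators were higher in 85 and lower in 19 of 119, the Gadd45 and MAP kinase arm in 66 and 14 of 98, other p53 targets in 64 and 72 of 177, the Bcl-2 family in 35 and 44 of 88, apoptosis execution in 69 and 68 of 180, G1 genes in 26 and 54 of 91 and stress genes in 2 and 102 of 142. In males the same counts were 48 and 3 of 59, 41 and 2 of 50, 29 and 19 of 79, 19 and 21 of 49, 24 and 29 of 83, 13 and 17 of 44 and 4 and 48 of 67. All 30 hemoglobin pairs were lower in male nuclei. Males and females differed in chemistry version (2 and 3), and no test was made between them.

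**Figure D4:**
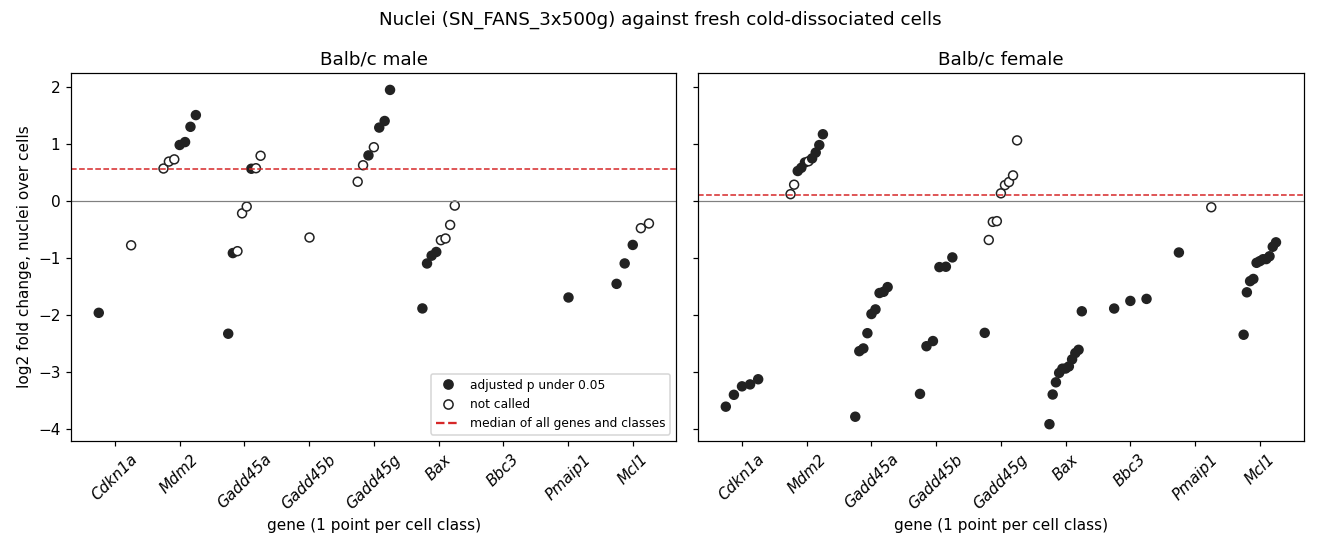
Log2 fold change of each member in SN_FANS_3x500g nuclei against fresh cells, 1 point per cell class, for male and female Balb/c kidneys, with a red dashed line at the median of all genes and classes (0.55 in males and 0.10 in females). *Mdm2* points lie above 0 and *Bax* and *Mcl1* points below 0 in both panels.

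The 3 nuclei protocols were compared within female Balb/c kidneys. Against SN_FANS_3x500g, SN_FANS_1x2000g nuclei had 7 of 63 member pairs higher and none lower, where 9.54% of 113371 pairs were called higher and 4.79% lower (medians 0.04 and -0.01), and all 7 were *Mcl1*. *Mcl1* was positive in 13 of 13 classes (median 0.73). The medians of the other members ran from -0.24 (*Mdm2*, 13 classes) to 0.31 (*Gadd45b*, 4 classes), with adjusted p of at least 0.0817 (*Gadd45a*, 9 classes, edgeR), those of *Cdkn1a*, *Gadd45g*, *Bax*, *Bbc3* and *Pmaip1* lying between. In proximal tubule it was at 47.5, 47.7 and 39.4 in SN_FANS_3x500g and 76.2, 72.03 and 75.0 in SN_FANS_1x2000g nuclei (0.73 ± 0.09, adjusted p = 0.00188, edgeR). In thick ascending limb it was at 56.6, 51.6 and 54.1 against 94.0, 85.8 and 107.7 (0.82 ± 0.10, adjusted p = 0.000171, edgeR). Of the 7 calls 4 were kept in all 11 alternatives, and 4 were left without SN_FANS_1x2000g replicate 3. Dissociation stress genes were higher in 52 of 153 pairs and hemoglobin genes in 15 of 20 in the same comparison, and their part in the *Mcl1* values was not tested.
SN_sucrose nuclei had 15 of 62 pairs higher and 1 lower than SN_FANS_3x500g nuclei, where 11.1% and 9.23% of 110098 pairs were called (medians 0.36 and 0.00). *Mcl1* was called in 6 of 12 classes and *Bax* in 5 of 10, for instance *Bax* in thick ascending limb at 13.2, 14.9 and 15.3 against 27.1, 33.3 and 33.7 (1.12 ± 0.15, adjusted p = 0.000185, edgeR). In principal cells *Gadd45b* (1.39), *Gadd45g* (0.93) and *Pmaip1* (1.13) were higher, *Gadd45b* was also higher in thick ascending limb (0.92), and in proximal tubule *Mdm2* was lower (-0.23). *Gadd45a* passed in none of 9 classes (median 0.15), and *Cdkn1a* and *Bbc3* in none of 2. Of the 16 calls 7 were kept in all 11 alternatives, and leaving out SN_sucrose replicate 2 took the count to 7. Stress genes were higher in 69 of 146 pairs and lower in 1, hemoglobin genes were higher in 12 of 21, and their part in these values was not tested. The largest cluster of thick ascending limb was number 8 with 31.1% of SN_FANS_3x500g nuclei and number 7 with 30.1% of SN_FANS_1x2000g and 31.4% of SN_sucrose nuclei. That of connecting tubule was number 17 with 45.4% of SN_FANS_3x500g nuclei and number 15 with 39.8% of SN_FANS_1x2000g and 39.1% of SN_sucrose nuclei.
Against SN_FANS_1x2000g, SN_sucrose nuclei had 6 of 65 pairs higher and 1 lower, where 2.99% and 2.13% of 114160 pairs were called (medians 0.17 and -0.00). *Bax* was higher in proximal tubule (0.59), distal convoluted tubule (0.70) and thick ascending limb (0.80), *Mcl1* was lower in proximal tubule (-0.32), and principal cells had more *Gadd45b* (1.00), *Gadd45g* (1.34) and *Pmaip1* (1.09). Neither *Mdm2* (12 classes, median 0.05), *Gadd45a* (9 classes, median 0.08), *Cdkn1a* (2 classes) nor *Bbc3* (2 classes) passed. Of these 7 calls 2 were kept in all 11 alternatives, and 2 were left without replicate 2 of either protocol. Stress genes were higher in 24 and lower in 11 of 162 pairs, and hemoglobin genes lower in 5 of 27.

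**Figure D5:**
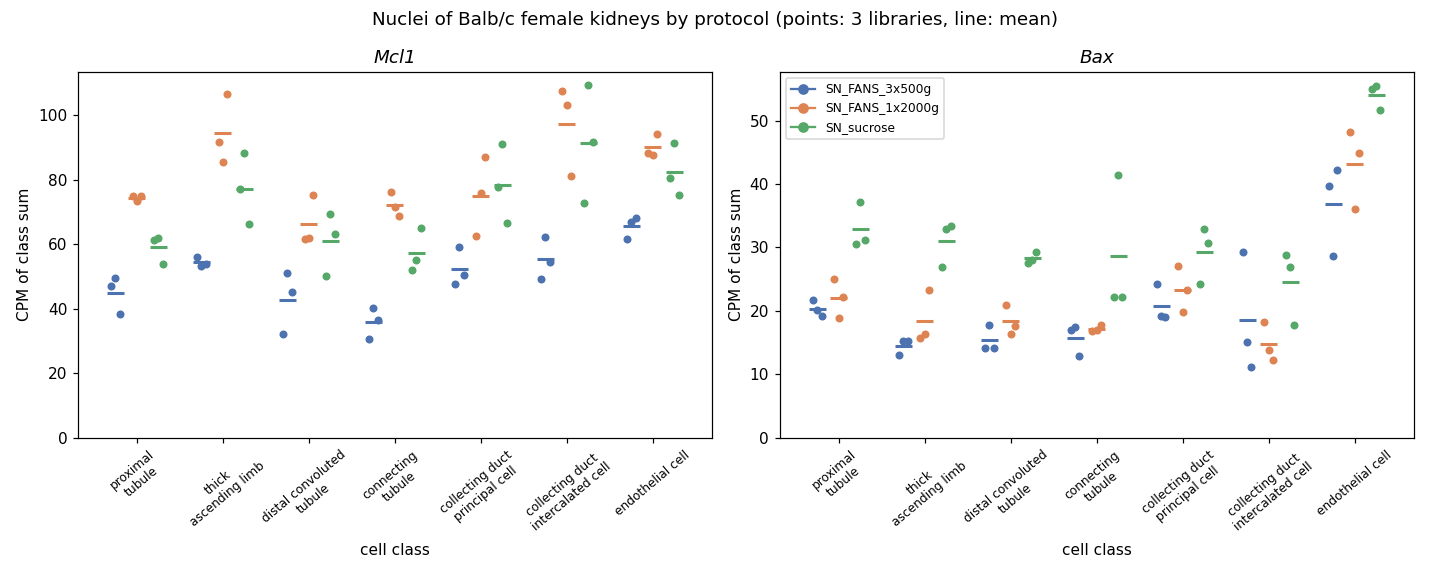
Level of *Mcl1* and *Bax* (plain CPM of the UMIs summed per class) in 7 cell classes of female Balb/c nuclei from 3 protocols, with 1 point per library (n = 3). *Mcl1* is lowest in SN_FANS_3x500g nuclei and *Bax* is highest in SN_sucrose nuclei in proximal tubule and thick ascending limb.

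The genes whose level ran most like a member over the 18 C57 10x libraries were found among 4923 genes by Pearson's r of the log2(CPM + 1) values, as a description of libraries that share composition and depth. *Cdkn1a* was most like *Nfkbia* (r = 0.997), *Pnrc1* (0.987) and *Atf4* (0.985). *Gadd45b* was most like *Dusp2* (0.980), *Ier5* (0.977) and *Klf4* (0.971), and *Gadd45g* like *Ier2* (0.964), *Cd83* (0.962) and *Junb* (0.958). *Pmaip1* was most like *Ppp1r15a* (0.964), *Cd83* (0.961) and *Nr4a1* (0.960), and *Mcl1* like *Chmp4b* (0.981), *Atf4* (0.980) and *Srgn* (0.979). The nearest genes were *Tspan8* for *Gadd45a* (0.958), *Bvht* for *Bbc3* (0.973), *Actr1a* for *Bax* (0.900) and *Pfkp* for *Mdm2* (0.894). On GRCm38 the exons of *Bax* overlap those of *Gm45808* on the same strand, and those of *Cdkn1a* and *Gadd45a* overlap genes on the opposite strand, so reads of these loci are uncertain where counting could split them.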

How the data were processed

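Whole-number counts per gene were deposited by the authors, as UMIs per gene and barcode for 39 10x libraries and as read counts per gene for 15 bulk libraries, with no normalization. The submitters' processing notes and methods name Cell Ranger 2.1.1, with introns counted for nuclei only, STAR 2.6.1a, featureCounts and the mm10/GRCm38 build; strandedness of the bulk counting is not given in the sources used here. Mitochondrial genes entered no total of nuclei or male Balb/c cells. All deposited barcodes were kept. The barcodes with the highest doublet scores were marked up to a share preset by library size (2.49% to 6.67% of barcodes), which is not a measured doublet rate. Marked doublets were removed only in an alternative. The cells and the nuclei of each experiment were clustered separately (leidenalg 0.10.2, Leiden resolution 2) and clusters named from marker lists. The UMIs of a class were summed per library where at least 2 libraries of a group held 10 or more of its cells, and tested with edgeR 4.0.16 (quasi-likelihood, TMM, filterByExpr, adjusted p under 0.05 over all genes of that class). Plain CPM used the library or class total; TMM-scaled CPM also used the comparison's factors. SE was derived from the F statistic. Intervals cover counting error only, and a count of 3 was taken as the floor. On simulated counts for 13917 genes of the bulk comparison of warm and cold, 84.5% of 2-fold and 98.9% of 4-fold changes were recovered. In class sums 53.7% of 2-fold changes were recovered for endothelial cells (4456 genes, warm against cold fresh), 59.8% for macrophages (2657 genes, cold cryopreserved against fresh) and 65.6% for endothelial nuclei (11049 genes, SN_sucrose against SN_FANS_3x500g), with 96.6%, 100% and 98.9% of 4-fold changes. For the cryopreservation interaction in endothelial cells (5473 genes) 74.2% of 4-fold changes were recovered. Unchanged genes made up 7.85%, 6.90%, 7.95%, 8.33% and 2.82% of the calls in these 5 simulations, in the order given.

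The members and gene lists were chosen with earlier results of these data known, so no count of them is independent evidence. All 9 members were named in each comparison where they could be tested; of other lists up to 3 called genes per list and direction were named, and 3 like-pattern genes per member. Alternatives were RLE size factors, no filter beyond 1 count, DESeq2 1.42.0, edgeR's exact test (bulk), doublets removed, Leiden resolution 1, each library left out and, for C57 10x groups, the suspension number in the headers as a replicate block, which was chosen after seeing the data. Fresh and stored aliquots of 1 dissociation with the same number came from the same suspension. Deviations from group means correlated at 0.41 to 0.50 between cold fresh and methanol libraries of the same number and less between other pairs. Between fresh and cryopreserved libraries of the same number the correlations were only -0.039 to 0.137 in cold and -0.030 to 0.0039 in warm suspensions. No source used here ties the numbers of warm to those of cold suspensions, so the block is a check of numbers alone there. P-values measure the spread between 3 mice per group. Promoters are from RefSeq on GRCm38.p6.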

Additional observations from a re-analysis of the deposited data

Results flagged for a closer look

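In 5 pairs of a member and a cell class the change on cryopreservation differed between warm and cold dissociation of C57 kidneys, by an edgeR test of the difference itself over 3 libraries per group, save 1 pair with fewer. *Gadd45b* in T cells differed by -2.61364 on the log2 scale (SE 0.58, adjusted p = 0.046, edgeR). In plain CPM it was at 0, 6.3 and 18.1 in cold fresh, 310.4, 239.8 and 252 in cold cryopreserved, 156.5, 90.2 and 144 in warm fresh and 543, 399.6 and 463 in warm cryopreserved cells, and with RLE size factors the adjusted p was 0.0642 (edgeR). *Gadd45b* in endothelial cells differed by -2.09299 (SE 0.40, adjusted p = 0.0176, edgeR), with 24.7, 9.9 and 12.6 in cold fresh, 231, 258 and 329 in cold cryopreserved, 67.6, 50.1 and 54.9 in warm fresh and 261, 215 and 185 in warm cryopreserved cells. *Gadd45g* in macrophages differed by -2.15284 and *Pmaip1* in dendritic cells by -2.69085, with the levels given above.

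*Cdkn1a* in monocytes differed by -3.00782 (SE 0.70, adjusted p = 0.0312, edgeR), with 2 libraries in each fresh group and only 3 UMIs in cold fresh cells. It was at 18.9 and 16.2 in cold fresh, 299.7, 351 and 428 in cold cryopreserved, 231 and 176.5 in warm fresh and 508, 456 and 437 in warm cryopreserved cells, and without the filter on low counts the adjusted p was 0.0682 (edgeR). All 5 differences had the same sign, and the stress genes that the study chose on these samples had 66 of 214 pairs lower and none higher in the same test.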

How the results depend on the processing

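Counts of calls kept within 1.5 times their main value in 155 of 184 alternative fits. DESeq2 gave 4 for 8 member pairs in female Balb/c cryopreservation, 2 for 6 in cold methanol and 9 for 16 in SN_sucrose against SN_FANS_3x500g, Leiden resolution 1 gave 4 for 8 in female Balb/c cryopreservation, and the test without the low-count filter gave 1 for 2 in intact kidney against suspension; the cause was not tested. Leaving out each library gave 3 to 5 calls for warm bulk, 1 to 2 for intact kidney, 2 to 5 for library sums, 10 to 16 for fresh classes (10 without cold fresh replicate 2), 14 to 16 and 13 to 19 for cold and warm cryopreservation, 4 to 7 for female Balb/c cryopreservation (4 without fresh replicate 1, 5 without fresh replicate 3), 2 to 5 and 1 to 4 for cold and warm methanol, 22 to 25 and 4 to 6 for warm against cold in cryopreserved and methanol-fixed cells, 16 to 23 and 51 to 57 for male and female nuclei, 4 to 8 for SN_FANS_1x2000g, 7 to 15 for SN_sucrose against SN_FANS_3x500g and 2 to 8 against SN_FANS_1x2000g. A lone library left in an arm was assumed to vary like the others.

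Single values changed side of the threshold in 301 and sign in 10 of 2591 alternatives, none of the 10 a call. Leaving out each library gave log2 fold changes from -0.16 to 0.091 for *Bbc3*, from -0.12 to 0.11 for *Bax* and from -0.19 to 0.10 for *Cdkn1a* between intact kidney and suspension, and from -0.076 to 0.075 for *Bax* in library sums. With the replicate block the counts were 4 for library sums, 16 for fresh classes, 17 and 18 for cold and warm cryopreservation, 8 and 4 for cold and warm methanol, and 26 and 7 for warm against cold in cryopreserved and methanol-fixed cells, and calls lost or gained with it between fresh and stored aliquots are given beside their results. Between warm and cold libraries the samples share only a number, with same-number correlations from -0.23 to 0.27. No paired analysis was possible because neither labels nor headers number the bulk and Balb/c samples across groups, and the interactions were fitted without a block. Members with few UMIs in a class, *Bbc3* above all, could not be tested in most classes at this depth.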

Other observations

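Bulk libraries of intact male Balb/c kidney had no matching suspension. Corrected for the length of the gene model, *Mcl1* was highest at 118 ± 12.8 TPM (SD, n = 3), followed by *Gadd45g* at 67.5 ± 22.0, *Gadd45a* at 64.0 ± 20.6, *Bax* at 56.0 ± 17.5, *Mdm2* at 40.5 ± 1.63 and *Pmaip1* at 14.2 ± 2.12. *Cdkn1a* (6.76 ± 1.61), *Bbc3* (5.34 ± 1.63) and *Gadd45b* (5.01 ± 1.71) were lowest and did not differ beyond their spread.

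*Gadd45g* was uneven between nuclei libraries of the same group. In plain CPM of library sums it was at 132, 26.7 and 43.5 in SN_FANS_3x500g, 125, 23.7 and 36.8 in SN_FANS_1x2000g and 40.9, 209 and 47.6 in SN_sucrose nuclei of female Balb/c kidneys, and at 105, 169 and 306 in male nuclei.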
